A study of Mus musculus with 12 samples.

Results

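Transcript levels were compared between spleen CD4+ T cells of a pair of transfer experiments, in which CD4+ T cells lacking IFN-γ or lacking IL-6 had been placed in lymphocyte-deficient mice. The members were chosen by their sample titles. They are 6 of the 12 arrays of a series on Th17 cells, with 3 arrays in each transfer. In the IFN-γ-deficient transfer the donor CD4+ T cells came from IFNg KO BALB/c mice and the hosts were RAG2 KO BALB/c. In the IL-6-deficient transfer the donor cells came from IL-6 KO BALB/c mice and the hosts lacked IL-6 as well as RAG2 (IL-6 KO RAG2 KO BALB/c). Every array is labelled as female, 7 weeks of age and 7 days after transfer, and the hosts of both groups lack RAG2, without which no T or B cells of their own are formed. Donor and host genotype thus differed together, no transfer of unmodified cells was among the arrays, and no stimulation is named in the labels of these 6. The labels do not say that replicates came from separate animals, so each p-value rests on the spread among arrays and may reflect technical repeats.

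Naive CD4+ T cells become helper lineages according to the cytokines around them. Th1 cells make IFN-γ under the regulator T-bet (Tbx21), Th2 cells make IL-4, IL-5 and IL-13 under GATA3, and Th17 cells make IL-17A and IL-21. IL-6 acts through STAT3 to start the Th17 program, and IFN-γ, acting on the same and on neighbouring cells, restrains it and induces GTPases and chemokines in cells that sense it. Transferred T cells in a lymphocyte-deficient host divide and take on effector functions.

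The measured quantity was the deposited probe set intensity of Affymetrix Mouse Genome 430 2.0 arrays, here as log2(intensity + 16) after quantile normalization over the 6 arrays. A level is on that scale, and a difference is the IFN-γ-deficient minus the IL-6-deficient transfer, so a positive value means higher in the IFN-γ-deficient transfer and does not say which group changed. Differences of dim genes are understated on this scale. Array signal in a bulk sample cannot tell fewer cells of a type from less RNA per cell.

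Replicate 3 of both groups stood apart from replicates 1 and 2. The first principal component held 57.7% of the variance and placed the replicate 3 arrays at 39.2 and 43.5 and the other 4 between -22.1 and -19.3. The second, with 19.1%, separated the transfers. The 3' over 5' signal ratio of the beta-actin control, a sign of RNA or labelling quality, was 3.81 and 5.13 in the replicate 3 arrays and 1.60 to 1.67 in the others, and that of Gapdh was 7.99 and 9.33 against 2.42 to 2.84. In the fit, 2005 genes were higher and 2916 lower in replicate 3 than in replicates 1 and 2 (16.3% and 23.7% of those tested). The heat shock genes Hspa1a and Hspa1b, by 3.27 and 3.03, and the lysozyme Lyz1, by 3.17, were among the highest, and Pou2f2, which encodes the transcription factor OCT2, was lowest at -3.03. This split entered the fit as a block, so the differences below are taken within it.

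Sex-linked transcripts divided the arrays in another way. Xist, the RNA that coats the inactive X chromosome of female cells, was 5.42, 5.39 and 5.54 in the IFN-γ-deficient arrays and 10.89, 10.83 and 5.57 in the IL-6-deficient arrays. Eif2s3y, a Y-linked translation factor gene, was 9.86, 10.52 and 10.13 against 4.31, 4.25 and 9.95. All 3 IFN-γ-deficient arrays and IL-6-deficient replicate 3 therefore had low Xist and clear Y-linked signal, and IL-6-deficient replicates 1 and 2 had the reverse, although all 6 arrays are labelled female. Kdm5d and Uty, Y-linked demethylase genes, gave the same split, at 7.34 to 7.57 and 6.33 to 6.75 in the IFN-γ-deficient arrays, 6.92 and 6.05 in IL-6-deficient replicate 3, and 4.03 to 4.37 in IL-6-deficient replicates 1 and 2. In the other 6 arrays of the series the deposited intensity of the Xist probe set with the widest split was 1369 to 3751, against 0.80 to 1.90 in these 4 arrays. Of 386 tested X-linked genes 6 passed as higher and 4 as lower, near the 1.35% and 1.5% of all tested genes. Of 7 tested Y-linked genes 3 passed as higher. The labels do not say whether the sex given is that of the donor or of the host, and whether an array carries a wrong label was not tested. For Ifng, given below, IL-6-deficient replicate 3 lay with the other arrays of its group.

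In replicates 1 and 2 this pattern cannot be told apart from the transfer, while the replicate 3 arrays share it. The difference within replicates 1 and 2 and the difference of the replicate 3 arrays are therefore given beside the results. The replicate 3 test has 1 array in each group and assumes that they vary like the other 4, and it carries the high 3' over 5' ratios.

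**Figure D1:**
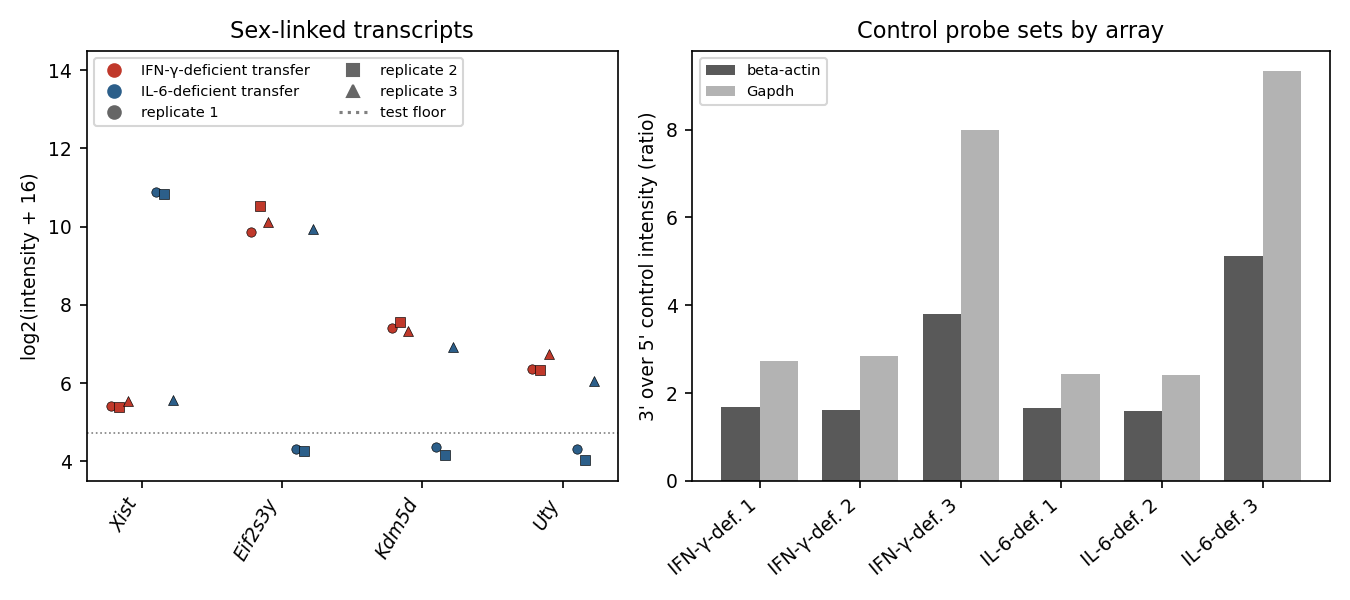
Left, levels of 4 sex-linked transcripts in log2(intensity + 16), where each point is 1 array, colour marks the transfer, shape marks the replicate and the dotted line is the level below which genes were not tested. IL-6-deficient replicate 3 sits with the 3 IFN-γ-deficient arrays for all 4 transcripts. Right, the 3' over 5' intensity ratio of the beta-actin and Gapdh controls, where each bar is 1 array and replicate 3 reaches 3.81 and 5.13 for beta-actin.

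Of 12302 genes tested, 166 had higher levels in the IFN-γ-deficient transfer and 184 had lower levels by limma at an adjusted p under 0.05, which is 2.85% of them (1.35% higher and 1.5% lower). Of them, 45 differed upward and 50 downward by at least 2-fold. All 350 had the same sign in replicates 1 and 2 as in replicate 3, and 102 also passed in the replicate 3 arrays alone. There 92 genes were higher and 134 lower (0.748% and 1.09%, together 1.84%), and in replicates 1 and 2 alone 263 were higher and 245 lower (2.14% and 1.99%, together 4.13%). Neither the shared sign nor the 102 is an independent check, since the same 6 arrays chose the 350. A gene whose differences oppose each other is unlikely to pass such a fit. The levels of the groups did not overlap for 202 of the 350. Over all tested genes they did not overlap for 9.88%, with the IFN-γ-deficient arrays higher for 5.41% and lower for 4.48%. The counts rest on the block: without it 8 genes were higher (0.065%) and 6 lower (0.0488%, together 0.114%), with 529 at an unadjusted p under 0.05, and with the 3 replicate numbers as the block 82 were higher and 110 lower (0.667% and 0.894%, together 1.56%). They also moved with single arrays, to 77 higher and 112 lower without IFN-γ-deficient replicate 1, 55 and 82 without its replicate 2, 77 and 97 without IL-6-deficient replicate 1, and 55 and 75 without its replicate 2. Without IFN-γ-deficient or IL-6-deficient replicate 3 the same 4 arrays decide the difference, and 262 and 270 were higher.

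**Figure D2:**
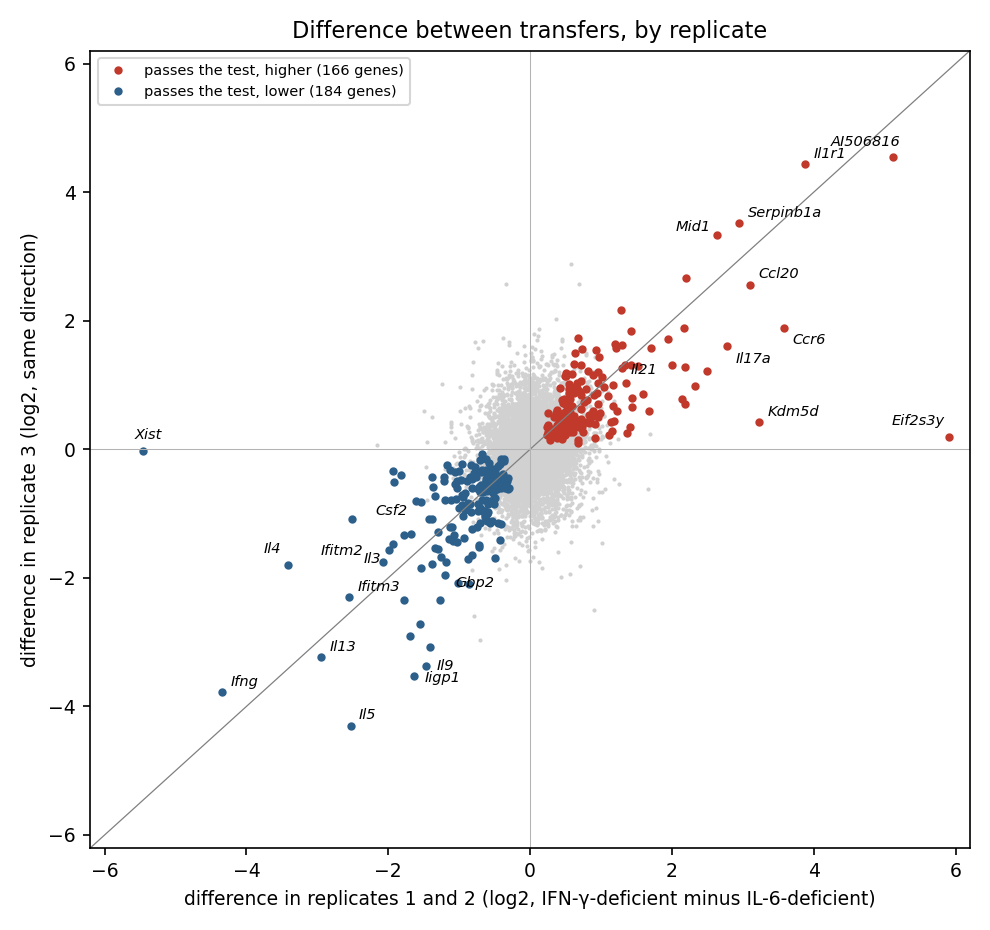
Each point is 1 tested gene, placed by its difference in replicates 1 and 2 (x axis) and in replicate 3 (y axis), both in log2 and as IFN-γ-deficient minus IL-6-deficient. Coloured points passed the test (166 higher and 184 lower), grey points did not, and the diagonal marks equal differences. Xist, Eif2s3y and Kdm5d lie near 0 on the replicate 3 axis, at -0.03, 0.18 and 0.42.

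The genes that the labels name as deleted come first. Ifng, encoding IFN-γ, was 9.58, 8.88 and 9.76 in the arrays labelled IFN-γ-deficient and 13.57, 13.57 and 13.54 in those labelled IL-6-deficient. The groups did not overlap, and the level in the IFN-γ-deficient arrays was still well over the floor of 4.72 below which no gene was tested. The difference was -4.15 ± 0.16 (SE, limma adjusted p = 4.1e-07, and 0.0011 without the block), with -4.34 in replicates 1 and 2 and -3.78 in replicate 3. Of the 10 genes on either side of Ifng on chromosome 10, 15 were tested in addition to it and 0 passed.

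Il6 did not follow its label. It was 5.66, 5.83 and 8.04 in the arrays labelled IL-6-deficient and 4.54, 4.76 and 6.83 in the others, so each IL-6-deficient array lay above the IFN-γ-deficient array of its number. The difference was -1.14 ± 0.17 (SE, limma adjusted p = 0.0052, and 1.0 without the block). Which part of Il6 or Ifng the knockouts lack is not stated, and a probe set elsewhere in the gene checks nothing, so the group is the transfer labelled IL-6-deficient in what follows. Rag2, which the hosts lack, was at most 4.24 in every array and below the floor. Il6ra, the IL-6 receptor chain, differed by 0.01 and Stat3, its signal transducer, by -0.21 (limma adjusted p = 0.98 and 0.17). Of 20 tested genes of the IL-6 and STAT3 pathway 0 were higher and 2 lower, against 1.35% and 1.5% of all tested genes. The lower ones were Il6 itself and the repressor Bcl6 at -0.58 (limma adjusted p = 0.030, and 1.0 without the block).

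Genes of the Th17 lineage were higher in the IFN-γ-deficient transfer. Of 18 tested members of a list of 22, with the other 4 not analysed here, 11 were higher and 0 lower, against 1.35% and 1.5% of all tested genes. At an unadjusted p under 0.05 these were 14 and 2. The median difference of the list was 1.60, against 0.004 over all tested genes. Some members, among them Serpinb1a, Mid1 and Pxdc1, were put on the list with earlier results of these arrays known, so the count is no independent evidence of a direction. Without the block 6 members passed, with the 3 replicate numbers 11 did, and in the replicate 3 arrays alone 10 did.

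Il17a, the defining cytokine of the lineage, was 12.40, 12.41 and 13.05 in the IFN-γ-deficient arrays and 9.51, 9.76 and 11.44 in the IL-6-deficient arrays. The groups did not overlap, and replicate 3 was the highest array of each. The difference was 2.38 ± 0.19 (SE, limma adjusted p = 8.5e-05), and 0.39 was the adjusted p without the block. It was 2.77 in replicates 1 and 2 and 1.60 in replicate 3, and these differed from each other (limma adjusted p = 0.013). Il21, a cytokine made by Th17 and follicular helper cells, was 10.59, 10.44 and 12.60 against 9.25, 9.20 and 11.33. The ranges overlap because replicate 3 was high in both groups, and the difference was close to the same in replicates 1 and 2, at 1.30, and in replicate 3, at 1.27 (limma adjusted p = 7.1e-06, and 1.0 without the block). The other Il21 probe set above the floor differed by only 0.38.

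Receptors and chemokines of the lineage differed as well. Il1r1, the receptor through which IL-1 supports Th17 cells, was 9.29, 9.32 and 9.01 against 5.01, 5.85 and 4.58. The IL-6-deficient arrays were near the floor, and the difference of 4.06 ± 0.21 (SE, limma adjusted p = 3.8e-06, and 0.0084 without the block) was the second largest increase of all tested genes whose groups did not overlap. Ccr6, the chemokine receptor that marks Th17 cells, was 9.88, 9.80 and 10.52 against 5.95, 6.57 and 8.62, a difference of 3.02 ± 0.29 (limma adjusted p = 0.00040, and 0.41 without the block). Ccl20, the ligand of that receptor, was 9.71, 9.89 and 9.94 against 6.46, 6.94 and 7.38, a difference of 2.92 ± 0.15 (limma adjusted p = 4.3e-06, and 0.0084 without the block). Neither overlapped between the groups, and the difference of Ccr6 was 3.58 in replicates 1 and 2 and 1.89 in replicate 3. Il1r2, a decoy receptor for IL-1, was bright in all arrays and differed by 0.73 (limma adjusted p = 0.0072, and 1.0 without the block). Of 13 tested members of the IL-1 and IL-18 family 2 were higher, Il1r1 and Il1r2, and 0 lower, against 1.35% and 1.5% of all tested genes. Il17re, a receptor chain for IL-17C, differed by 1.34 (limma adjusted p = 0.010, and 0.97 without the block).

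Among the remaining list members, Serpinb1a, a protease inhibitor, was 9.43, 9.24 and 10.10 against 6.29, 6.47 and 6.58. The groups lay far apart in every replicate, with a difference of 3.14 ± 0.14 (SE, limma adjusted p = 1.1e-06, and 0.0084 without the block), and 1.41 for its other probe set. Mid1, an X-linked microtubule-binding ubiquitin ligase, differed by 2.87 and lay below the floor in the IL-6-deficient arrays, at 4.09, 4.14 and 4.22. Its difference was 3.33 in the replicate 3 arrays, which share the sex-linked pattern. The membrane protein genes Tmem176a and Tmem176b, which are neighbours, differed by 2.08 and 1.88, and Pxdc1 by 1.87 (limma adjusted p from 4.8e-05 to 0.0028 for these 4 genes). Without the block Tmem176b did not pass (adjusted p = 0.22) and the other 3 did, at 0.012 to 0.041.

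The transcription factors of the list that could be read did not pass. Rora, which acts beside the lineage's main regulator, differed by 0.51 (limma adjusted p = 0.073), Batf by 0.32 (0.064) and Maf by 0.34 (0.11). Ahr, Irf4 and Stat3 lay between -0.21 and 0.04. These values are of the brightest probe set of each gene. The 8 Rora probe sets above the floor ran from 0.01 to 0.89, the 5 of Maf from 0.04 to 0.34 and the 2 of Ahr from -0.16 to 0.32. Among genes of γδ T cells, which share several Th17 genes, 3 were on the array and 2 were tested. Blk and Cd163l1 differed by 0.49 and 0.50 without passing (limma adjusted p = 0.30 and 0.36), and the summed intensity of the 3 genes ran from 43.9 to 56.6 in the IFN-γ-deficient arrays and from 28.8 to 40.5 in the others. Their part in the Th17 differences was not tested.

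**Figure D3:**
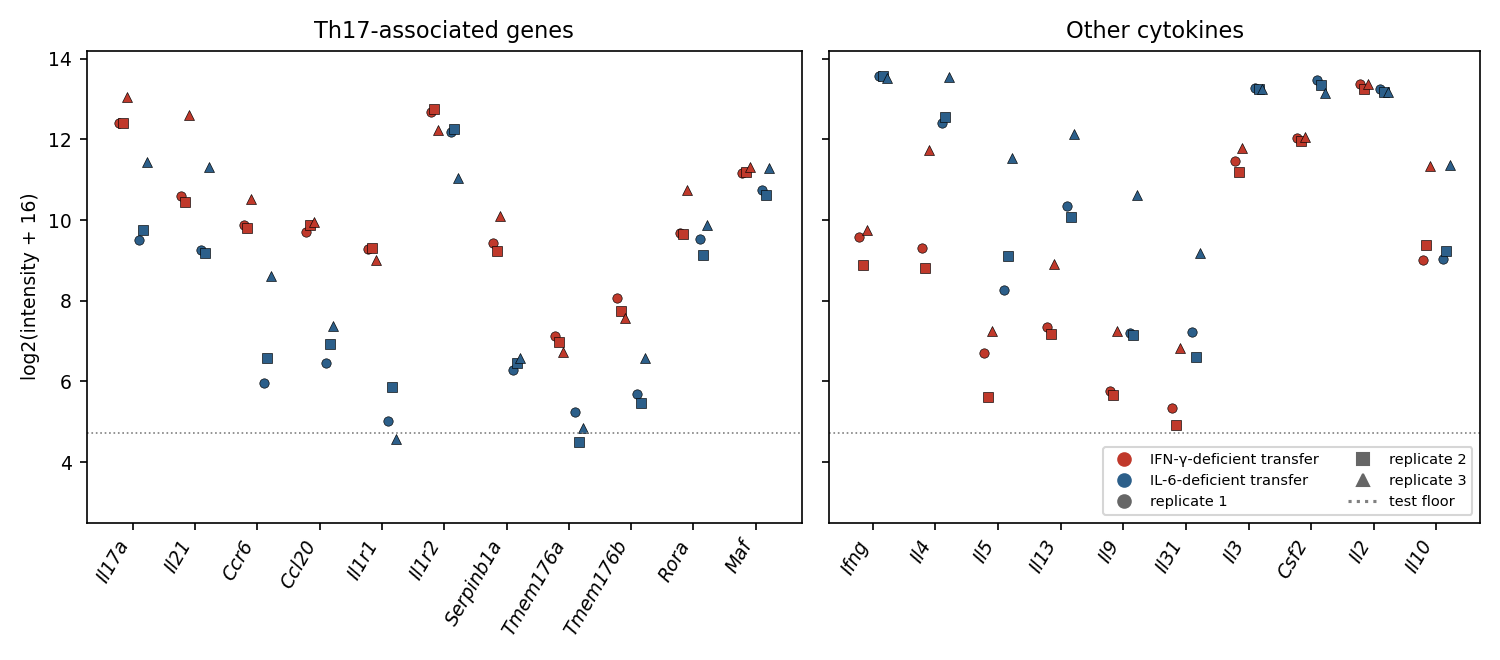
Levels in log2(intensity + 16) of Th17-associated genes (left) and other cytokines (right), where each point is 1 array, colour marks the transfer, shape the replicate and the dotted line the test floor. Il17a, Ccr6, Ccl20, Il1r1 and Serpinb1a lie higher in all IFN-γ-deficient arrays, and Ifng, Il3 and Csf2 lie higher in all IL-6-deficient arrays. Il2 and Il10 differed by 0.13 and 0.03.

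Cytokines of type 2 immunity were lower in the IFN-γ-deficient transfer. Of 12 tested Th2 members 0 were higher and 6 lower, against 1.35% and 1.5% of all tested genes, with a median difference of -0.51. The 6 also passed with the 3 replicate numbers and in the replicate 3 arrays alone, and without the block 0 passed by limma, although 4 had an unadjusted p under 0.05. Il4, the cytokine that starts and keeps the lineage, was 9.32, 8.82 and 11.74 in the IFN-γ-deficient arrays and 12.40, 12.56 and 13.54 in the IL-6-deficient arrays. The groups did not overlap although replicate 3 was higher in each. The difference was -2.87 ± 0.26 (SE, limma adjusted p = 0.00026, and 0.58 without the block), and it was larger in replicates 1 and 2, at -3.41, than in replicate 3, at -1.80 (limma adjusted p of the difference = 0.025).

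Il13, which drives mucus and barrier responses, was 7.35, 7.18 and 8.91 against 10.34, 10.09 and 12.14. Its difference of -3.04 ± 0.11 was nearly the same in replicates 1 and 2, at -2.95, and in replicate 3, at -3.23 (limma adjusted p = 2.2e-07, and 0.41 without the block). Il5, the eosinophil growth factor, was 6.71, 5.62 and 7.25 against 8.27, 9.12 and 11.55, a difference of -3.12 ± 0.37 (limma adjusted p = 0.0017, and 0.65 without the block). Neither gene overlapped between the groups. Il9, a mast cell growth factor, was 5.75, 5.67 and 7.25 against 7.21, 7.14 and 10.63, with -1.47 in replicates 1 and 2 and -3.38 in replicate 3 (limma adjusted p of the difference between them = 0.0094). Its ranges overlapped slightly, since IFN-γ-deficient replicate 3 lay just above IL-6-deficient replicates 1 and 2. Il31, an itch cytokine, differed by -1.97, and Gata3, the regulator of the lineage, by -0.68 (limma adjusted p = 0.00062 and 0.0025, and 1.0 for both without the block).

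Of the Th2 members that did not pass, Il10, a cytokine that dampens responses, was nearly level between the transfers in every replicate, at 0.06 in replicates 1 and 2 and -0.02 in replicate 3. Ccr4, a Th2 chemokine receptor, differed by 0.50 (limma adjusted p = 0.067) and Il4ra, the IL-4 receptor chain, by 0.23. Among mast cell and basophil markers, cells that can make type 2 cytokines, 2 of 6 on the array were tested. Kit, the stem cell factor receptor, was higher in the IFN-γ-deficient transfer by 1.56 (limma adjusted p = 0.00060, and 0.20 without the block), with 0.55 for its other probe set. The other 4, among them the defining genes Cpa3 and Fcer1a, were below the floor, and the basophil gene Mcpt8 differed by -0.08 (limma adjusted p = 0.94). The summed intensity, to which Kit gave the most, ran from 239 to 443 in the IFN-γ-deficient arrays and 88.8 to 147 in the others, and its part in the cytokine differences was not tested.

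Il4, Il13 and Il5 lie close together on chromosome 11, and Csf2 and Il3 follow in the same stretch of 12 genes in the RefSeq order of GRCm38.p6. Of the 11 tested genes there 6 were lower and 0 higher, against 1.5% and 1.35% of all tested genes. These were Il4, Il13, Il5, Csf2, Il3 and Pdlim4, a cytoskeletal adaptor gene that differed by -0.93 (limma adjusted p = 0.036). Pdlim4 lay at 4.20 and 4.25 in IFN-γ-deficient replicates 1 and 2, under the floor of 4.72. It did not pass without the block, and 13 of 17 other planned settings ended its call. The 5 other tested genes of the stretch, among them Rad50 and Irf1, did not pass and ran from -0.44 to 0.02. The lower levels thus belonged to the cytokine genes and, less firmly, to Pdlim4, and not to every gene of the stretch. The stretch was set to run from Il4 to Il3, which both passed, and its cytokine genes also count in other lists. The count of 6 is therefore no separate evidence.

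Il3, which encodes a growth factor for blood progenitors and mast cells, was 11.48, 11.18 and 11.78 in the IFN-γ-deficient arrays and 13.29, 13.24 and 13.25 in the others. Csf2, encoding GM-CSF, was 12.04, 11.95 and 12.07 against 13.49, 13.35 and 13.15. Neither gene overlapped, and both passed also without the block (limma adjusted p = 6.8e-06 and 7.1e-06, and 0.0084 for each without it). Their differences were -1.78 ± 0.10 and -1.31 ± 0.07 (SE). Of 13 tested growth factor and other shared cytokines 1 was higher and 4 were lower, against 1.35% and 1.5% of all tested genes. Beside Il3 and Csf2 the lower ones were Csf1, a macrophage growth factor, at -1.15 and Lif, a cytokine of the IL-6 family, at -0.98 (limma adjusted p = 0.0061 and 0.00047, and 0.60 and 1.0 without the block). Ltb, encoding lymphotoxin beta, was higher by 0.45 (limma adjusted p = 0.0048, and 1.0 without the block). Il2, the main T cell growth factor, was between 13.18 and 13.38 in all 6 arrays, and Tnf differed by -0.12 (limma adjusted p = 0.66).

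Genes that IFN-γ induces were lower in part, read against 1.5% of all tested genes lower. Of 19 tested members of a list of 25, with 5 not analysed here and 1 below the floor, 6 were lower and 0 higher, and the median difference was -0.49. The median was -0.21 in replicates 1 and 2 and -1.12 in replicate 3. In the replicate 3 arrays alone 11 members were lower, and for 6 the 2 differences themselves differed, against 0.382% of all tested genes. Without the block 0 members passed by limma, although 7 had an unadjusted p under 0.05. Levels moved on both sides of the larger difference. Gbp6 was 7.365 in IFN-γ-deficient replicate 3 against 9.58 and 9.35 in replicates 1 and 2. Gbp2 was 10.92 in IL-6-deficient replicate 3 against 9.74 and 9.70. IL-6-deficient replicate 3 also had the highest neutrophil marker signal, with a summed intensity of 1740 over 10 markers against 91.9 to 467 in the other 5 arrays. The part of that signal was not tested.

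The promoters of 2 GTPase genes of the list and 3 neighbouring Ifitm genes that were lower are shown because interferon-induced genes are known for a short element, the interferon-stimulated response element (ISRE). The windows run from 250 bases before to 50 bases after the RefSeq start in GRCm38.p6, 5′ to 3′ on the gene's strand. Capitals mark matches to GAAANNGAA, searched on both strands, where N is any base. Gbp2 is chr3:142620413-142620712 on the plus strand, Irgm1 is chr11:48871371-48871670 on the minus strand, Ifitm1 is chr7:140967826-140968125 on the plus strand, Ifitm2 is chr7:140955912-140956211 and Ifitm3 is chr7:141010695-141010994, both on the minus strand.
Gbp2: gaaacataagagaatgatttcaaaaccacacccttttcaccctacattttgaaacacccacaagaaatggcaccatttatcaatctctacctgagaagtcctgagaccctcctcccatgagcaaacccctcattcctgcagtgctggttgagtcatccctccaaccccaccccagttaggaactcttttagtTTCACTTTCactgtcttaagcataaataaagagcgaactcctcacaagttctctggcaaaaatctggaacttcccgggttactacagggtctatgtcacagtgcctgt
Irgm1: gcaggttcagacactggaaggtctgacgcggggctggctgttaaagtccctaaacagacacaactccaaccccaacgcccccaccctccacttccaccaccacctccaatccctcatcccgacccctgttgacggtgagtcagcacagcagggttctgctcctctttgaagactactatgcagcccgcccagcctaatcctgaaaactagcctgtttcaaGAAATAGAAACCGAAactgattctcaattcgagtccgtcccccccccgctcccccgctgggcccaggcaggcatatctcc
Ifitm1: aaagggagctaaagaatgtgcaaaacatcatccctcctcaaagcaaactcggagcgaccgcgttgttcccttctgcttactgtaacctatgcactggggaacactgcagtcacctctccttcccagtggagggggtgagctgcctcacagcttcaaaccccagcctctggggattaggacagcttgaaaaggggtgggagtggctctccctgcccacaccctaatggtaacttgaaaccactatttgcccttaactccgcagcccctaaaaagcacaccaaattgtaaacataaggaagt
Ifitm2: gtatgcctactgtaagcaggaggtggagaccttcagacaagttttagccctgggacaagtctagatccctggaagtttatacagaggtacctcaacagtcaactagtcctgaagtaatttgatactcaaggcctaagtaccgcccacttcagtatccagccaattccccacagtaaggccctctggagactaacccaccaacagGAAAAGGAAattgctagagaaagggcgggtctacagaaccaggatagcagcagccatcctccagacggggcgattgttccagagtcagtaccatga
Ifitm3: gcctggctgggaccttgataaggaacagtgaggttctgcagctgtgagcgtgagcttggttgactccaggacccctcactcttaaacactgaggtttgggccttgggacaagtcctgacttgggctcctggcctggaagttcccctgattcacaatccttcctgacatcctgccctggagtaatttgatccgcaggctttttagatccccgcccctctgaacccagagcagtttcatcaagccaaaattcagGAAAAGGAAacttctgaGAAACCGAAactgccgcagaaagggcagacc

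The Gbp2 window holds 1 match, Irgm1 holds 2 that overlap, Ifitm2 holds 1, Ifitm3 holds 2 that lie after the start, and the Ifitm1 window holds none of these letters. Of all 32851 promoter windows 8.56% hold a match, and of 12651 windows of tested genes 6.96%. Windows of genes lower in the IFN-γ-deficient transfer held one in 26 of 201 cases (12.9%), those of higher genes in 17 of 191 (8.90%). Among the IFN-γ response members tested, 13 genes matched the promoter table with 16 windows, of which 10 held a match (62.5%). For the Th17 members tested, 15 genes matched with 22 windows, of which 0 did. Matches to TTCNNNGAA, the element bound by STAT proteins, stood in 9.45% of windows of lower genes, 9.95% of higher genes and 6.85% of tested genes. Matches to TGANTCA, the AP-1 element, stood in 11.4%, 9.95% and 5.64%. In the 16 windows of IFN-γ response members these motifs stood in 31.2% and 25.0%. A match is a run of letters and not a measured site.

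Gbp2, a guanylate-binding GTPase of cell-autonomous defence, was 8.67, 8.37 and 8.96 in the IFN-γ-deficient arrays and 9.74, 9.70 and 10.92 in the others. Iigp1, an immunity-related GTPase, was 10.04, 10.32 and 7.43 against 11.77, 11.87 and 10.96. Irgm1, a regulator of those GTPases, was 9.17, 9.03 and 8.56 against 9.64, 9.54 and 10.25. None of the 3 overlapped between the groups, and IFN-γ-deficient replicate 3 was the lowest array for Iigp1 and Irgm1. The differences were -1.45 ± 0.15, -2.27 ± 0.29 and -0.89 ± 0.20 (SE, limma adjusted p = 0.00060, 0.0025 and 0.040, and 0.53 to 0.88 without the block).

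For Iigp1 the difference was -1.64 in replicates 1 and 2 and -3.52 in replicate 3, and for Irgm1 -0.49 and -1.70, each of which differed between the replicates (limma adjusted p = 0.0030 and 0.024). Gm4951, another GTPase gene of this family, differed by -2.10, Gbp7 by -0.73 and the chemokine gene Cxcl11 by -1.15 (limma adjusted p from 0.0016 to 0.034, and 0.24 to 1.0 without the block). Other members did not pass. Gbp3 differed by -0.01, Irf1, a transcription factor induced by IFN-γ, by -0.22, and Igtp by -0.28, and Gbp6 at -1.46 missed the threshold (limma adjusted p = 0.054), with -0.70 in replicates 1 and 2 and -2.97 in replicate 3.

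The Ifitm genes, which encode small membrane proteins that restrict virus entry, differed in every replicate. Ifitm3 was 8.34, 8.28 and 8.24 in the IFN-γ-deficient arrays and 11.19, 10.53 and 10.54 in the others, and Ifitm2 was 8.54, 8.31 and 8.85 against 10.66, 10.35 and 10.60. The groups were more than 1 log2 unit apart at their closest. The differences were -2.47 ± 0.15 and -1.97 ± 0.12 (SE, limma adjusted p = 8.4e-06 and 8.0e-06, and 0.0084 and 0.014 without the block). Ifitm1 was 9.15, 8.92 and 9.34 against 10.58, 10.26 and 10.43, a difference of -1.29 (limma adjusted p = 0.00023, and 0.078 without the block). These 3 genes lie side by side on chromosome 7 with Ifitm6, which differed by -0.12 (limma adjusted p = 0.86). Ifitm5, Ifitm7 and Ifitm10 were below the floor. The differences in replicates 1 and 2 and in replicate 3 were -2.55 and -2.30 for Ifitm3 and -2.08 and -1.75 for Ifitm2.

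Other interferon-linked groups are read against 1.5% of all tested genes lower. Of 22 tested genes of the type I interferon response 1 was lower, the RNA sensor gene Ddx58 at -0.70 (limma adjusted p = 0.039, and 1.0 without the block), with a list median of -0.17. Of 12 tested genes of class I antigen presentation 2 were lower, the immunoproteasome subunit gene Psmb9 at -0.57 and the peptide-loading gene Tapbp at -0.51 (limma adjusted p = 0.0028 and 0.0068, and 1.0 and 0.91 without the block). All 12 differences were below 0, with a median of -0.13. Of 9 tested genes of class II presentation 0 passed by limma, although 1 had an unadjusted p under 0.05.

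**Figure D4:**
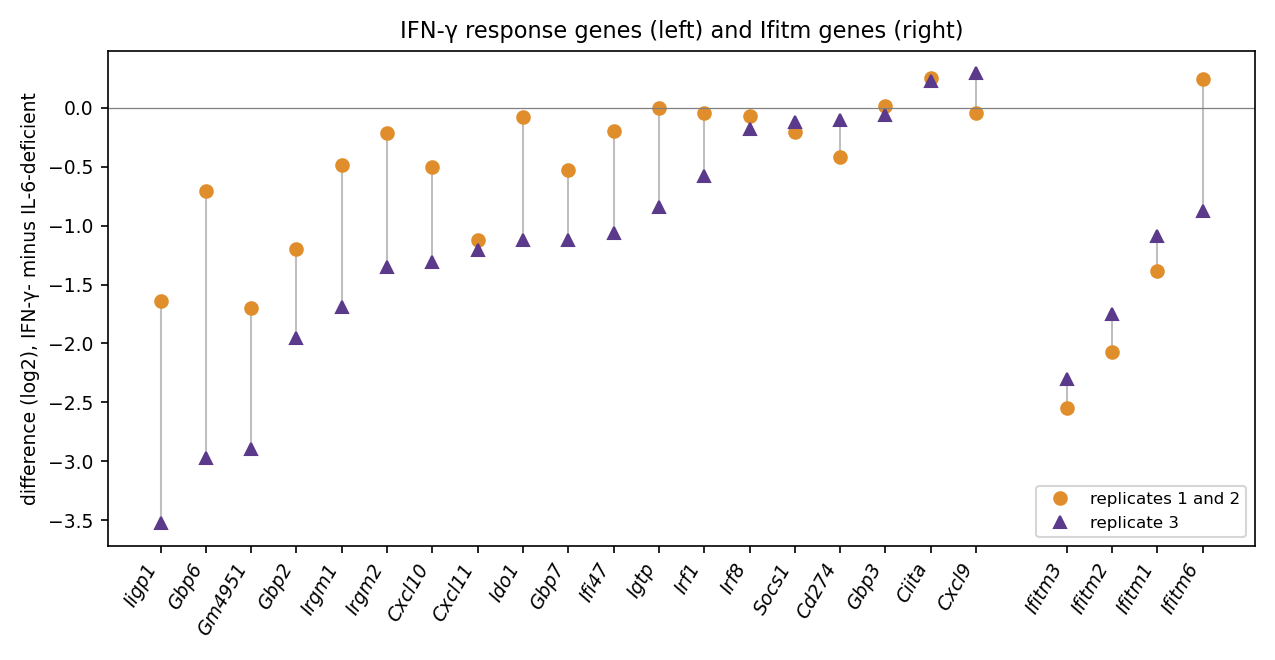
Differences in log2, IFN-γ-deficient minus IL-6-deficient, in replicates 1 and 2 (circles) and in replicate 3 (triangles) for the 19 tested IFN-γ response genes (left) and the 4 tested Ifitm genes (right). A grey line joins the values of 1 gene. Among IFN-γ response genes the median is -0.21 in replicates 1 and 2 and -1.12 in replicate 3, and Ifitm3 has -2.55 and -2.30.

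Of 12 tested Th1 genes 1 was higher and 3 lower, against 1.35% and 1.5% of all tested genes. Beside Ifng the lower ones were its regulators Tbx21 and Stat4. Tbx21 was 10.15, 10.09 and 9.41 in the IFN-γ-deficient arrays and 10.44, 10.66 and 10.82 in the others, which did not overlap. Its difference was -0.43 in replicates 1 and 2 and -1.42 in replicate 3 (limma adjusted p = 0.040 over all arrays, 0.81 without the block, and 0.043 for the difference between the replicates). Stat4, which carries the IL-12 signal, was 9.98, 9.93 and 10.70 against 11.28, 10.90 and 11.03, with -1.13 in replicates 1 and 2 and -0.33 in replicate 3 (limma adjusted p = 0.014, and 0.67 without the block). Its groups did not overlap either. The call of Tbx21 was lost in 9 of 18 other planned settings and that of Stat4 in 5 of 18. Cxcr3, the chemokine receptor of Th1 cells, was higher by 0.55 (limma adjusted p = 0.012, and 1.0 without the block).

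Chemokines and their receptors changed in both directions, read against 1.35% higher and 1.5% lower of all tested genes. Of 14 tested chemokines Ccl20 was higher and 2 were lower, Cxcl11 and Ccl1. Ccl1, the ligand of CCR8, was 12.66, 12.43 and 11.80 against 13.59, 13.56 and 13.24, a difference of -1.17 (limma adjusted p = 5.2e-05, and 0.30 without the block). Its groups did not overlap. Ccl3 and Ccl4, inflammatory chemokines encoded side by side, were lower in replicates 1 and 2, at -1.11 and -1.38, and higher in replicate 3, at 0.39 and 0.50, and did not pass over all arrays (limma adjusted p = 0.20 and 0.21). Of 15 tested receptors 3 were higher, Ccr6, Cxcr3 and Ccr2, and 1 lower, the lymph node homing receptor Ccr7 at -0.59 (limma adjusted p = 0.022, and 0.85 without the block). Ccr2, a receptor of inflammatory homing, differed by 1.37 in replicates 1 and 2 and 0.26 in replicate 3 (limma adjusted p of the difference = 0.023). Over all arrays its limma adjusted p was 0.016, and it did not pass without the block. Its 4 probe sets above the floor ran from 0.124 to 0.999. The call was lost in 9 of 18 other planned settings, among them the median of its probe sets.

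Some early genes of T cell activation were lower in the IFN-γ-deficient transfer, read against 1.5% of all tested genes lower. Of 26 tested members 9 were lower, Ifng among them, 0 were higher and 17 did not pass, with a median of -0.28. Only Ifng passed without the block, and 7 members had a positive difference. Fos, a subunit of AP-1, was 9.56, 9.14 and 12.30 against 10.15, 10.15 and 12.67, a difference of -0.65. The nuclear receptor genes Nr4a1, Nr4a2 and Nr4a3 differed by -0.44, -0.82 and -0.46, the stress gene Ier3 by -1.01, and Egr3, a transcription factor, by -0.56 (limma adjusted p from 0.00076 to 0.020 for these 6, and 1.0 without the block). The other Egr3 probe set above the floor went the opposite way, at 0.55. The 3 probe sets of Nr4a3 ran from -0.46 to 0.18 and the 6 of Nr4a2 from -0.97 to -0.16, and neither gene passed with the median of its probe sets (limma adjusted p = 0.36 and 0.13). The same list was higher in replicate 3 than in replicates 1 and 2, with a median of 0.93, so it moves with the split that also carries the 3' over 5' ratios. Cd69, an early surface marker, differed by 0.16 (limma adjusted p = 0.18).

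In lists of other T cell states members passed in both directions, read against 2.85% of all tested genes. Of 13 tested Treg genes 3 were higher and 1 lower, and Foxp3, their regulator, differed by 0.22 (limma adjusted p = 0.27). The higher ones were Gpr83 at 0.88, Izumo1r at 0.53 and Ikzf2 at 0.26, and the lower one was Entpd1, an ectonucleotidase gene, at -0.67 (limma adjusted p from 0.0067 to 0.038, and 1.0 without the block). Of 11 tested follicular helper genes 3 were higher, Il21, the coactivator Pou2af1 at 1.22 and Slamf6 at 0.49, and Bcl6 was lower. For Pou2af1 the limma adjusted p was 0.00068, and 0.39 without the block. Slamf6 (limma adjusted p = 0.016) did not pass without the block either. Its 3 probe sets ran from 0 to 0.49, and 8 of 18 other planned settings ended the call. Of 18 tested effector and memory genes 4 were higher, among them Lgals3, encoding galectin-3, at 0.79 and Klrg1 at 0.59, and 1 was lower, Anxa2 at -0.72. Lgals3, Klrg1 and Anxa2 had a limma adjusted p of 0.0023, 0.013 and 0.016, and did not pass without the block. The other Anxa2 probe set lay at 0.16.

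Of 14 tested cytotoxic genes 1 was higher and 3 lower, against 1.35% and 1.5% of all tested genes. The granzyme B inhibitor Serpinb9 was 9.79, 9.59 and 10.16 in the IFN-γ-deficient arrays and 11.75, 11.48 and 10.66 in the others, with -1.92 in replicates 1 and 2 and -0.50 in replicate 3. The groups did not overlap, and the replicates differed (limma adjusted p = 0.0073 over all arrays, 0.39 without the block, and 0.015 for the difference between the replicates). The cathepsin gene Ctsw at -1.11 and Fasl, encoding Fas ligand, at -0.75 were lower as well, and Gzmb was higher by 0.27 (limma adjusted p from 0.0023 to 0.017, and 0.30 to 0.85 without the block). Of 11 tested naive T cell genes Ccr7 was lower, and of 11 tested coinhibitory genes Entpd1 was.

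Counts in housekeeping groups are read against the same 2.85%. Of 25 tested cell cycle genes, 17 ribosomal protein genes, 19 genes of the unfolded protein response and 10 heat shock genes 0 passed by limma, with medians of -0.12, 0.03, 0.05 and 0.04, and 7 of these 71 genes had an unadjusted p under 0.05. In the replicate 3 arrays alone 5 of the 19 unfolded protein response genes were higher, against 0.748% of all tested genes, with a median of 0.29 there and -0.003 in replicates 1 and 2. There 2 cell cycle genes were lower, against 1.09% of all tested genes. Mki67, the proliferation marker, differed by -0.07. Of 17 tested cholesterol synthesis genes 2 were higher, Idi1 at 0.35 and Msmo1 at 0.39, and of 17 tested glycolysis genes the glucose transporter gene Slc2a3 was lower, at -0.47 (limma adjusted p from 0.021 to 0.040, and 1.0 without the block). Of 19 tested T cell receptor signalling genes Cd5 was higher, at 0.43, of 20 negative regulators Rnf128, a ubiquitin ligase gene, was lower, at -0.76, and of 16 genes of the TGF-β pathway the integrin gene Itgb8 was higher, at 0.90 (limma adjusted p from 0.0070 to 0.032, and 1.0 without the block).

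**Figure D5:**
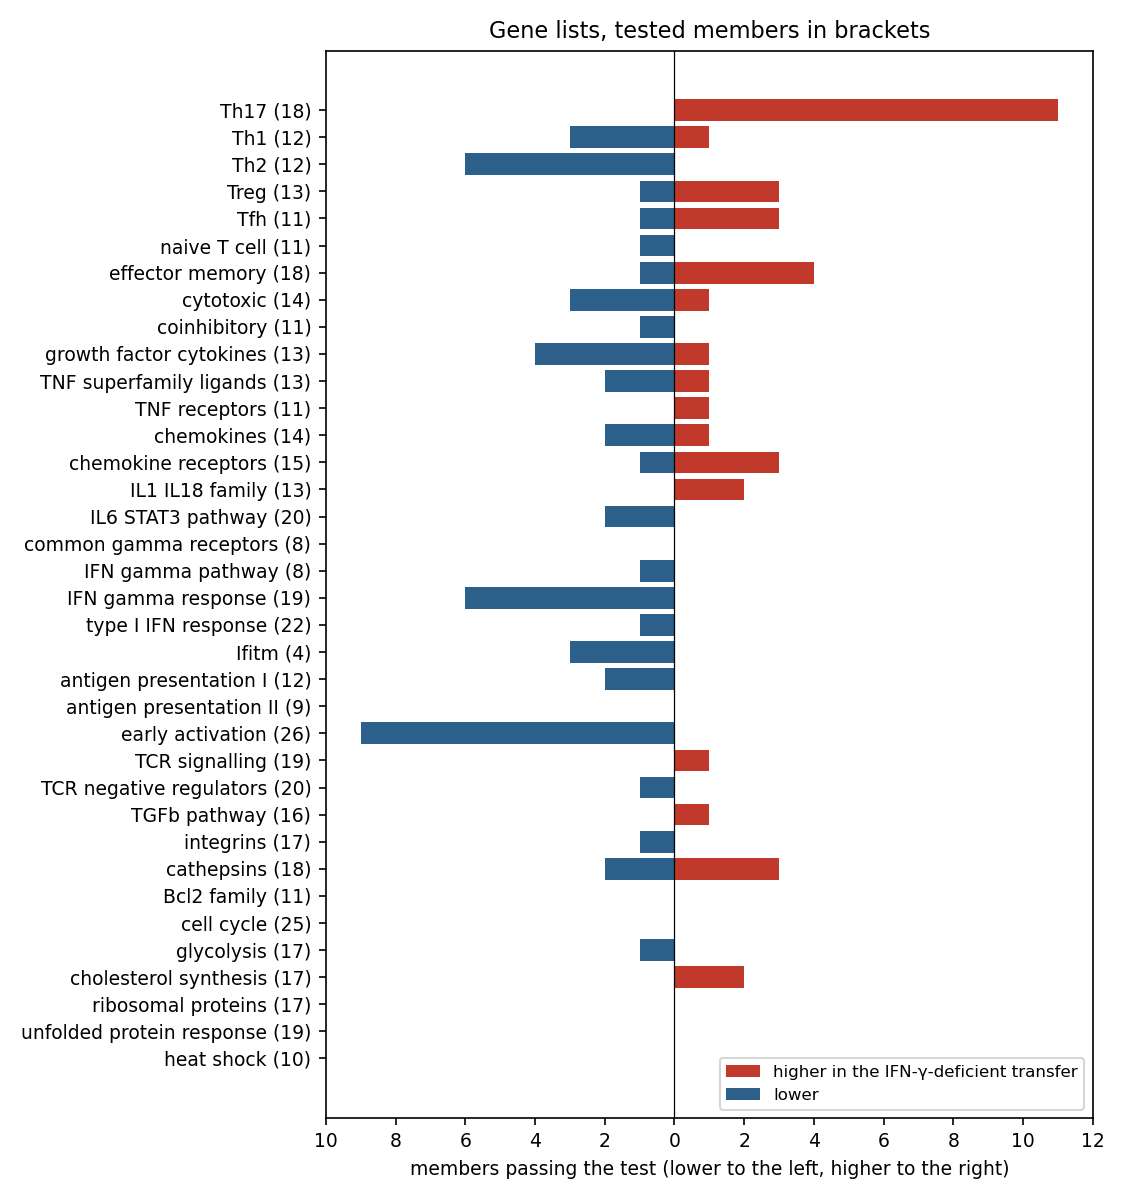
Number of members of each gene list that passed the test, with bars to the right for genes higher and to the left for genes lower in the IFN-γ-deficient transfer; brackets give the number of tested members. The Th17 list has 11 of 18 higher, the Th2 list 6 of 12 lower, the IFN-γ response list 6 of 19 lower and the early activation list 9 of 26 lower.

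Several of the largest differences belonged to genes outside these lists. AI506816, listed under its database symbol, was 10.35, 10.48 and 9.79 in the IFN-γ-deficient arrays and 5.25, 5.35 and 5.24 in the others. It had the largest increase of all genes that passed without overlap, 4.93 ± 0.14 (SE, limma adjusted p = 4.0e-08, and 0.00064 without the block). Ctps2, an X-linked gene for CTP synthesis, was 7.23, 7.23 and 7.26 against 4.47, 5.60 and 4.59, a difference of 2.35 (limma adjusted p = 0.0010, and 0.078 without the block), while its other probe set lay at -0.13. Acpp, an acid phosphatase gene, was higher by 1.45. Fn1, encoding fibronectin, was 6.23, 6.14 and 6.10 against 7.84, 7.61 and 7.94, a difference of -1.64, and Acpp and Fn1 passed without the block as well (limma adjusted p = 0.041 and 0.025). Scin, an actin-severing protein gene, differed by -2.04 (limma adjusted p = 0.0033, and 0.21 without the block).

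Markers of the labelled cell type were present. The 8 CD4+ T cell markers on the array had a summed intensity of 13700 to 17800 in the IFN-γ-deficient arrays and 12300 to 15900 in the others, and Cd3e and Cd4 differed by -0.05 and -0.24 (limma adjusted p = 0.92 and 0.41). Of 5 tested B cell, 3 NK cell, 11 macrophage, 6 dendritic cell, 8 neutrophil, 5 erythroid, 4 platelet and 4 stromal markers 0 passed. The same held for 0 of 2 CD8 markers, against 2.85% of all tested genes. By limma 6 of these 48 had an unadjusted p under 0.05, against 2026 of all 12302 tested genes. The B cell genes Cd79a and Ms4a1 were below the floor, while Ighm was 10.56, 9.28 and 9.33 against 10.07, 9.07 and 10.32. Of 6 tested plasma cell markers Derl3 was higher by 0.98 (limma adjusted p = 0.0066, and 0.25 without the block). Summed macrophage markers ran from 358 to 388 and from 322 to 536. The neutrophil gene S100a8 was 5.48, 7.16 and 7.35 against 6.01, 4.82 and 9.85, which overlapped, with IL-6-deficient replicate 3 the highest array.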

How the data were processed

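RNA of CD4+ T cells was hybridised to Mouse Genome 430 2.0 arrays after biotin labelling by in vitro transcription, per the labels' protocols. The deposited values are linear intensities per probe set. Behind them stand software and normalization not given in the sources used here. Among 45101 probe sets 64 were controls, which were left out. Of the others 34945 listed 1 gene, 932 several and 9160 are not listed in the annotation used. Symbols were updated through RefSeq (GRCm38.p6) for 34741. Intensities were quantile normalized over the 6 arrays and taken as log2(intensity + 16), which compresses dim genes. The brightest single-gene probe set stood for each of 18193 genes, and 12302 with a mean at or above the 40th percentile of probe sets (4.72) were tested. The number of arrays, 3 in each group, limits the precision.

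The fit was limma 3.58.1 in R 4.3.3 (lmFit and trended eBayes), with two-sided p-values adjusted by Benjamini-Hochberg, a threshold of 0.05, and replicate 3 against replicates 1 and 2 as a block. It was run on simulated data with independent noise around the same block model. The simulated differences did not vary between replicates, so that run does not cover the sex-linked split. Differences within replicates 1 and 2, within replicate 3 and between them came from a fit with group, block and their product, added after the sex-linked split was seen. For the pairing of replicate numbers, deviations from the group means correlated at 0.46, 0.44 and 0.70 for replicates 1, 2 and 3. Replicates 1 and 2 crossed at 0.44 and 0.41. Replicate 3 dominates deviations from means of 3 arrays, so these values could hardly show a pairing within replicates 1 and 2.

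The comparison, its block, the gene lists and the named genes were chosen with earlier results of these data known. Named genes are the 10 largest increases and decreases without overlap, lineage and cytokine genes, up to 6 members with the smallest p and the ends of the range in each list, genes passing without the block, marker genes that passed or were brightest, and extremes of replicate 3. Ahr, Irf4, Gbp3, Gbp6, Igtp, Ccl4, Il6ra, Mki67, Pdlim4, Rad50, Cd79a, Ms4a1, Cpa3 and Fcer1a were named after their values were seen. Alternatives were other added constants, filters, normalizations, probe set summaries, variance models, blocks, array weights and leaving out each array.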

Additional observations from a re-analysis of the deposited data

Results flagged for a closer look

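For 21 named genes the difference between the transfers in the replicate 3 arrays differed from that in replicates 1 and 2, by the limma test of the difference itself (adjusted p under 0.05). The values here are the replicate 3 difference minus the difference in replicates 1 and 2, on the log2 scale. The sex-linked genes stood out, with 5.43 for Xist, -5.73 for Eif2s3y, -2.81 for Kdm5d and 1.30 for Kdm6a, an X-linked demethylase gene. Among cytokines and receptors the values were -1.17 for Il17a, 1.61 for Il4, -1.91 for Il9, 1.50 for Ccl3, 1.89 for the neighbouring Ccl4, 1.21 for Xcl1, 0.68 for Il1r2, -1.11 for Ccr2 and 2.22 for Cd70. For the GTPase genes Iigp1, Irgm1, Gbp6 and Igtp they were -1.89, -1.21, -2.27 and -0.84, and for Tbx21 the value was -0.99. Serpinb9 gave 1.42, Havcr2 1.39 and Hk2 -1.22. Over all tested genes 47 passed this test (0.382%). The replicate 3 side has 1 array in each group.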

How the results depend on the processing

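The main counts, 166 higher and 184 lower, became 49 and 73 with no filter, 105 and 120 with the median over each gene's probe sets, 19 and 19 with no intensity trend, and 340 and 294 with array weights. Without normalization between arrays they were 109 and 318, so 25.5% of calls were higher against 47.4%. With no replicate block they were 8 and 6, and with the replicate block of 3 numbers 82 and 110, of which 190 were among the main calls. In the replicate 3 arrays alone they were 92 and 134, and in replicates 1 and 2 alone 263 and 245, both added after seeing the data. Leaving out each array in turn gave 55 to 270 higher and 75 to 249 lower. The causes of these shifts were not tested. Of 88 named genes that passed, 20 kept the call in every planned setting in which they were tested, leaving aside the fit with no block. Mid1, among these 20, was tested in 16 of the 18 settings. Among the calls lost often were those of Msmo1 and Pdlim4, each in 13 settings. Irgm1, Ikzf2 and Cxcl11 each lost theirs in 10, and Entpd1 in 9. Anxa2 changed sign with the median of its probe sets, to 0.16 (limma adjusted p = 0.75). Ccl4 changed sign in the replicate 3 arrays alone, to 0.50 (limma adjusted p = 0.048).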
